A study of Mus musculus with 8 samples.

Results

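Inhibitory checkpoint receptors are surface proteins that restrain T cells after activation. The transcripts of 7 such genes were followed in CD4 T cells of the mouse colon: Lag3, Pdcd1 (the PD-1 receptor), Ctla4, Tigit, Havcr2 (the TIM-3 receptor), Btla and Cd200. The genes were chosen by name, with earlier results of these data known, and are 7 of the 31053 genes in the deposited tables. All 7 had transcripts in each of the 8 libraries, from 1165 counted transcripts of Cd200 to 52839 of Ctla4 over all CD4 T cells.

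Cells came from the lamina propria of the colon, a layer of connective tissue below the epithelium, of C57BL/6 mice aged 10 to 12 weeks and kept free of specific pathogens. The mice were wildtype or RORgtS182A mutants, which carry a substitution in RORgt (the sample titles write the mutants as S203AKI), the transcription factor that defines Th17 cells and group 3 innate lymphoid cells (ILC3). Each genotype was either left on plain water for 10 days (untreated) or given 2% dextran sulfate sodium (DSS), a polymer that injures the colonic epithelium, for 7 days, followed by 3 days without it, and tissue was collected on day 10. The 2 genotypes and 2 treatments make 4 groups of 2 libraries each, which the series describes as independent biological replicates. All groups shared the strain, the enzymatic digestion, the density gradient and the magnetic CD4 enrichment. Beyond the letters KI in the sample titles, the labels used here state neither how the substitution was introduced nor in which cells it is carried. A single substitution cannot be seen in counts of transcript 3' ends. Replicate numbers only name libraries.

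Checkpoint receptors work by competing for ligands or by recruiting phosphatases that weaken signals from the antigen receptor. Lag3 binds major histocompatibility complex class II, the ligand that CD4 also uses. Pdcd1 binds Cd274 (PD-L1) and Pdcd1lg2, Ctla4 takes Cd80 and Cd86 away from the activating receptor Cd28, and Tigit competes with the activating receptor Cd226 for Pvr. Havcr2 is known as a receptor for galectin-9, and Btla binds Tnfrsf14. Cd200 differs from the rest, since it is the ligand of the inhibitory receptor Cd200r1 and is found on T cells and on stromal cells. In the gut, regulatory T cells (Treg) are known for constant display of Ctla4.

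The promoters of Havcr2 and Pdcd1 are shown because they hold the letters AGGTCA, the core of the DNA element that ROR-family factors bind. Both are the 250 bases before the RefSeq start on GRCm38.p6, 5' to 3' along the gene's strand, with the motif in capitals. The Havcr2 window lies at chr11:46454681-46454930 on the plus strand, with the motif on the gene's strand from 84 bases before the start. The Pdcd1 window lies at chr1:94052554-94052803 on the minus strand, with the motif read on the opposite strand, so that it appears as TGACCT, from 41 bases before the start.
Havcr2: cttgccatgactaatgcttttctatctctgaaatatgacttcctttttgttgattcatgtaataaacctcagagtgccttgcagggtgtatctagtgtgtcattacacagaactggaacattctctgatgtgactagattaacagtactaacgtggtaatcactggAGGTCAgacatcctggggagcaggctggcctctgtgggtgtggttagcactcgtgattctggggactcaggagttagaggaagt
Pdcd1: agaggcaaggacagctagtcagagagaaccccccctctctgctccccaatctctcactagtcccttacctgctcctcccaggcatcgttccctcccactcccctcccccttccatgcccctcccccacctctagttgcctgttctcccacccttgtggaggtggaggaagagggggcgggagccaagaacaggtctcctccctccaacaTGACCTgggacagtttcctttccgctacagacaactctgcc
The search covered both strands of a 300-base window, the 250 bases before and the 50 after the start. Windows were found for 6 of the 7 genes. Lag3 had no window, so its promoter was not searched. Of the 6, 2 held the motif, against 5340 of all 32851 windows (16.3%). A match describes the letters only, and these files hold no binding data.

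The libraries held between 10563 and 16133 barcodes and between 34497509 and 46960005 counted transcripts. The deposited cell list kept 27420 of the 100673 barcodes. Clustering without the 7 genes gave 9 T cell clusters with 20731 cells, called CD4 T cells here, at 1781 to 3745 a library. They were named from markers as Treg-like (clusters 2 and 7), Th17-like, Th1-like, Tfh-like (helper cells of B cell follicles), naive or central memory-like and cycling-like. The genes leading the Tfh-like cluster included Cxcr5 and Il21 but also the haemoglobin genes Hbb-bs and Hba-a1. Cluster 5, led by Dtx4 and Trat1, stayed unnamed. So did cluster 8, led by A630095E13Rik, Pbsn and 9530053A07Rik, followed by Ccl20, heat-shock genes, Svs5, Il22, Ifng and Il17a. Any pair of libraries shared 0 to 9 kept barcodes. The untreated mutant libraries stood apart in their heat-shock genes, as given beside the results. DSS-treated wildtype replicate 2 had the most CD4 T cells (14.4%, against 7.40% overall) with transcripts of at least 2 different macrophage, B cell or fibroblast markers. The p-values rest on the spread between the 2 libraries of a group, pooled over all 4 groups and drawn towards that of other genes.

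Levels, written CPM, are the counted transcripts (unique molecular identifiers, UMIs) of a gene per 1000000 of all those counted in the same population and library. Counts mark the 3' ends of molecules and capture differs between genes, so levels were compared within a gene and not between genes. Subsets of one library share its preparation, so differences between subsets are descriptions, without a test.

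The receptors were not spread alike over the T cell subsets. With the Treg-like clusters pooled, the means of Lag3, Ctla4 and Havcr2 were highest in Treg-like cells, and those of Btla and Cd200 in Tfh-like cells. Pdcd1 and Tigit differed little among the leading subsets. Lag3 averaged 285 ± 86.5 CPM (SD, n = 8 libraries) in Treg-like cells and was above the next subset in 8 of 8 libraries. Tfh-like cells followed with 166 ± 67.4 CPM, cluster 8 with 133 ± 36.0, Th17-like cells with 112.2 ± 60.9 and cycling-like cells with 99.5 ± 18.2. These 4 neighbours overlapped within their SDs. Th1-like cells had 69.4 ± 26.9 CPM of Lag3, naive or central memory-like cells 29.1 ± 30.6 and cluster 5 28.0 ± 11.8.

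Ctla4 fell into clearer steps. Its level was 1235 ± 96.0 CPM in Treg-like cells and 1029 ± 142 in Th17-like cells, and each was above the next subset in 8 of 8 libraries. Cluster 8 had 777 ± 189 CPM of Ctla4, cycling-like cells 748 ± 135, Th1-like cells 607 ± 155 and Tfh-like cells 513 ± 78.3. The lowest levels of Ctla4 were 438 ± 108 CPM in cluster 5 and 231 ± 73.7 in naive or central memory-like cells. Havcr2 was found mainly in Treg-like (109 ± 14.8 CPM) and Th17-like cells (80.1 ± 33.5). Its Treg-like level was above the Th17-like one in 7 of 8 libraries, and the means did not differ beyond their SDs. Cycling-like cells had 48.4 ± 12.8 CPM of Havcr2, cluster 8 35.6 ± 5.82 and Th1-like cells 23.6 ± 13.6. Havcr2 was low in cluster 5 (5.75 ± 2.84 CPM), naive or central memory-like cells (4.55 ± 3.93) and Tfh-like cells (3.49 ± 3.08, with 2 of 8 libraries at 0), and the latter pair did not differ beyond their SDs.

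Btla and Cd200 were highest in Tfh-like cells in every library. Btla averaged 59.9 ± 10.0 CPM there, 34.6 ± 9.36 in naive or central memory-like cells and 12.6 in Treg-like cells. Cd200 averaged 44.6 ± 16.0 CPM in Tfh-like cells and 18.3 in cluster 8, the next subset. Pdcd1 was nearly level among Treg-like (39.9 ± 12.3 CPM), Tfh-like (39.7 ± 11.04) and Th1-like cells (37.5 ± 18.9), with 30.8 ± 6.72 in Th17-like and 5.22 in naive or central memory-like cells. Tigit likewise stood at 31.5 ± 8.93 CPM in Treg-like, 28.9 ± 6.96 in Tfh-like cells and 27.9 ± 6.88 in cluster 8, with 19.0 in Th17-like cells. The Treg-like mean of Pdcd1 joins clusters with unlike levels, given below.

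**Figure D1:**
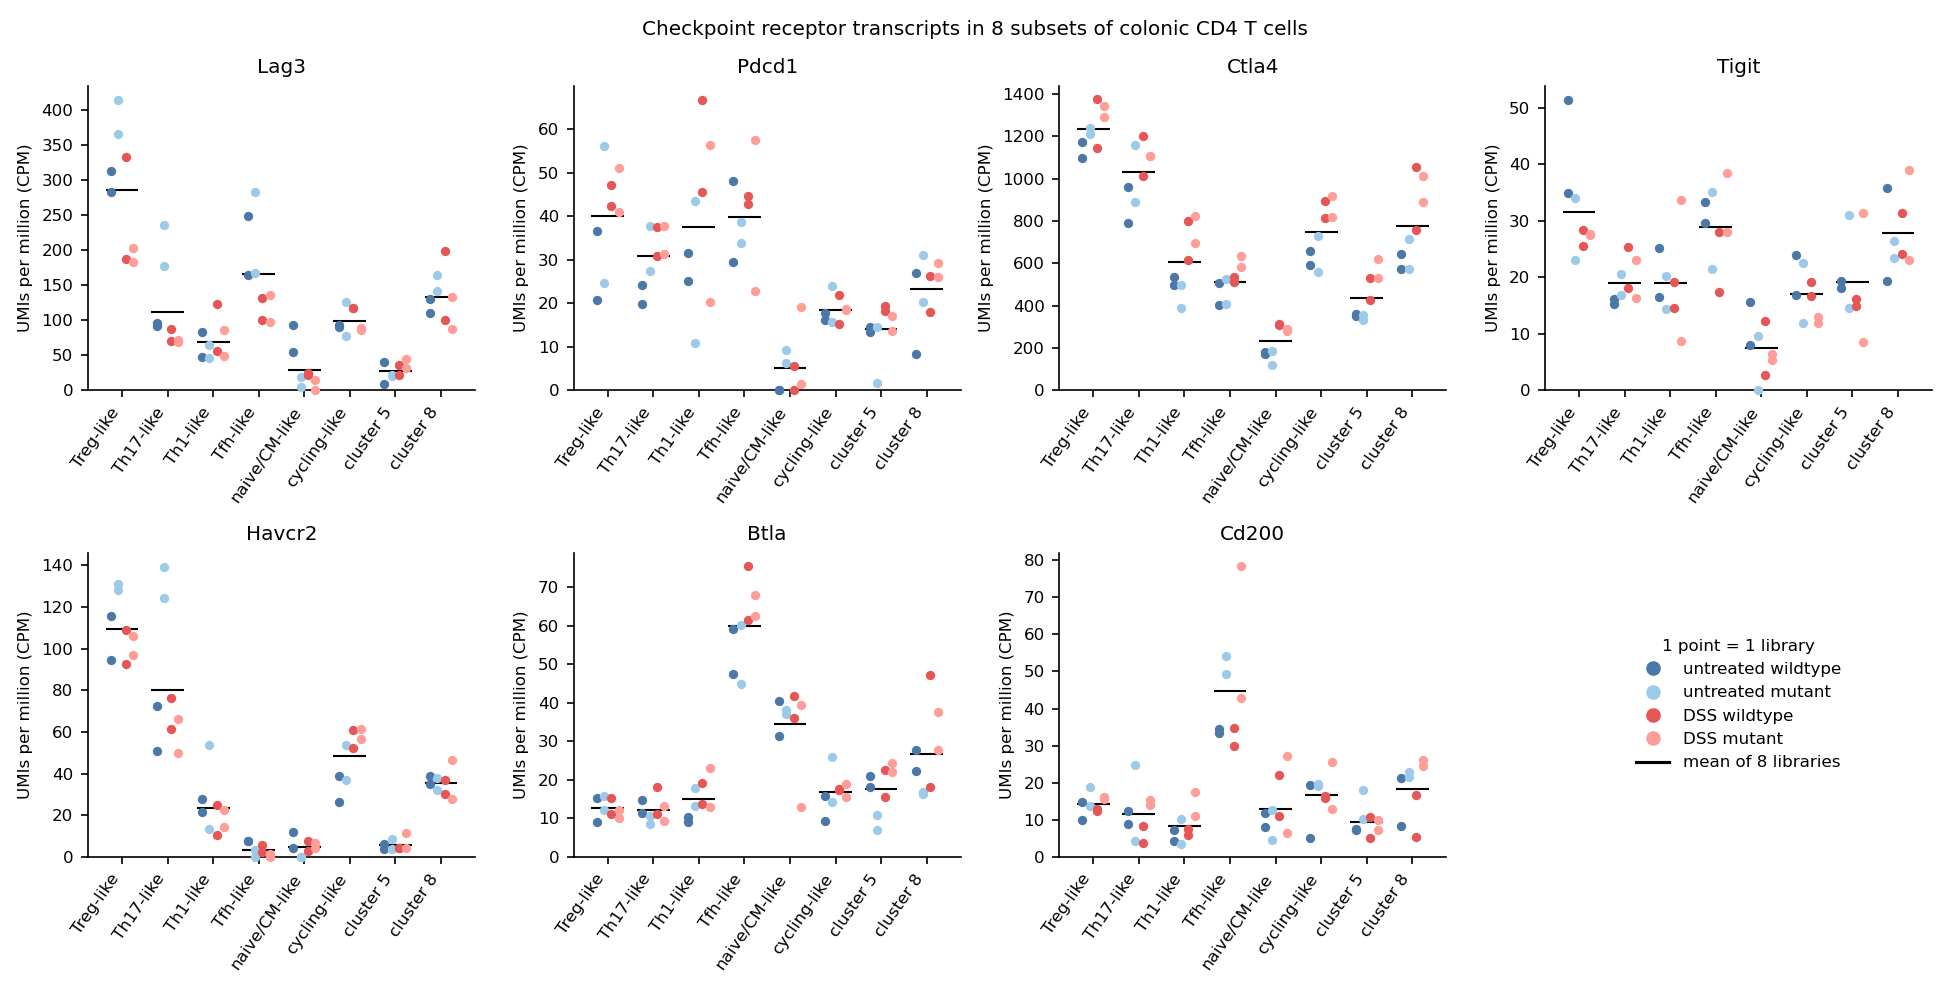
Level of each of the 7 genes (y axis, CPM) in 8 subsets of colonic CD4 T cells (x axis). Points are single libraries coloured by group and bars are the mean of 8 libraries. The means of Lag3, Ctla4 and Havcr2 are highest in Treg-like cells, with their clusters pooled, and those of Btla and Cd200 in Tfh-like cells.

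The Treg-like cells held 2 clusters with different receptor profiles. Cluster 2 (3038 cells), led by Foxp3, Il10, Gzmb and Itgae, averaged 377 ± 118 CPM of Lag3, 1435 ± 75.0 of Ctla4 and 136 ± 24.04 of Havcr2. Cluster 7 (1446 cells), led by Il1rl1 (the interleukin-33 receptor) and Klrg1, averaged 106 ± 33.4 CPM of Lag3, 855 ± 163 of Ctla4 and 56.8 ± 15.7 of Havcr2. In cluster 7 the mean of Lag3 lay below those of Tfh-like cells (166 CPM), cluster 8 (133) and Th17-like cells (112.2). The means of Ctla4 and Havcr2 there lay below those of Th17-like cells (1029 and 80.1 CPM). Between the 2 clusters the order was the other way for Pdcd1, with 21.8 ± 10.0 CPM in cluster 2 and 75.1 ± 25.8 in cluster 7. The Pdcd1 mean in cluster 7 lay above the 39.7 CPM of Tfh-like and 37.5 of Th1-like cells. Btla was also lower in cluster 2 (7.79 against 21.6 CPM), in all 8 libraries. Tigit averaged 31.2 CPM in cluster 2 and 32.5 in cluster 7, with groups on both sides: 39.3 against 50.7 in untreated wildtype and 32.9 against 20.7 in untreated mutant libraries. Cd200 averaged 9.61 CPM in cluster 2 and 23.0 in cluster 7, but the order was not shared by all groups: in untreated wildtype it was 14.2 against 7.87, from 17 and 5 transcripts.

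The largest called change among the 7 genes was that of Lag3 in Th17-like cells. In untreated wildtype libraries it stood at 91.7 and 96.6 CPM, and in untreated mutant libraries at 177 and 235. After DSS it stood at 70.0 and 86.8 CPM in wildtype and at 68.4 and 71.6 in the mutant. Both untreated mutant libraries were above all 6 others.

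In the mutant, Lag3 fell with DSS in Th17-like cells, by 1.62 ± 0.19 (SE) on the log2 scale, or 3.08-fold (adjusted p = 0.000368, edgeR's quasi-likelihood test with Benjamini-Hochberg adjustment). It had the smallest p of the 7022 genes tested in these cells. Among all those genes, 3.40% were called in this comparison, 1.58% higher and 1.82% lower. Without DSS, Lag3 was higher in the mutant than in wildtype Th17-like cells by 1.11 ± 0.19 on the log2 scale, or 2.15-fold (adjusted p = 0.0221). Only 5 genes (0.0712%) were called in that comparison: Lag3, the heat-shock genes Hsph1, Hspa8 and Hspa1a, all higher in the mutant, and the chemokine gene Ccl5, lower. The 2 comparisons share the untreated mutant libraries and do not support each other.

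Wildtype Th17-like cells did not pass the test for Lag3 with DSS (log2 change -0.36 ± 0.21, adjusted p = 0.563). The interaction, the test of whether the DSS change differed between genotypes, gave -1.27 ± 0.28 with an unadjusted p of 0.000261 and an adjusted p of 0.305. A different response of the genotypes was therefore not called for Lag3 over all genes.

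The genotype call for Lag3 was lost without untreated mutant replicate 2 (log2 0.85, adjusted p = 0.936). It was also lost at about the same size without untreated wildtype replicate 1 (log2 1.08, adjusted p = 1.0) or replicate 2 (log2 1.13, adjusted p = 0.167), and with DESeq2 (log2 1.10, adjusted p = 0.329). With coarser clusters it was 1.0 (adjusted p = 0.0673), without cells that carry markers of other cell types 0.99 (adjusted p = 0.0783) and over all barcodes within the cell limits 0.86 (adjusted p = 0.328), none of them called. The genotype difference was not called with UMI gates or in low-stress cells either. The fall of Lag3 with DSS in mutant Th17-like cells was called in all 17 alternatives, at -1.81 to -1.12 on the log2 scale.

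The T cell subsets also differed in share between these libraries. Cluster 8, the unnamed cluster with Il17a and heat-shock genes among its leading genes, made up 21.8% and 13.5% of the CD4 T cells in the untreated mutant libraries, against 1.84% to 8.44% in the 6 others. Th17-like cells made up 8.87% and 24.4% there, within the 8.33% to 35.9% of all libraries. Within cluster 8, Lag3 stood at 130 and 111 CPM in untreated wildtype, 141 and 164 in untreated mutant, 101 and 199 in DSS-treated wildtype and 86.8 and 133 in DSS-treated mutant libraries. Neither its genotype difference (log2 0.43 ± 0.23, adjusted p = 0.781) nor its DSS change in the mutant (-0.52 ± 0.24, adjusted p = 0.2501) was called there.

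**Figure D2:**
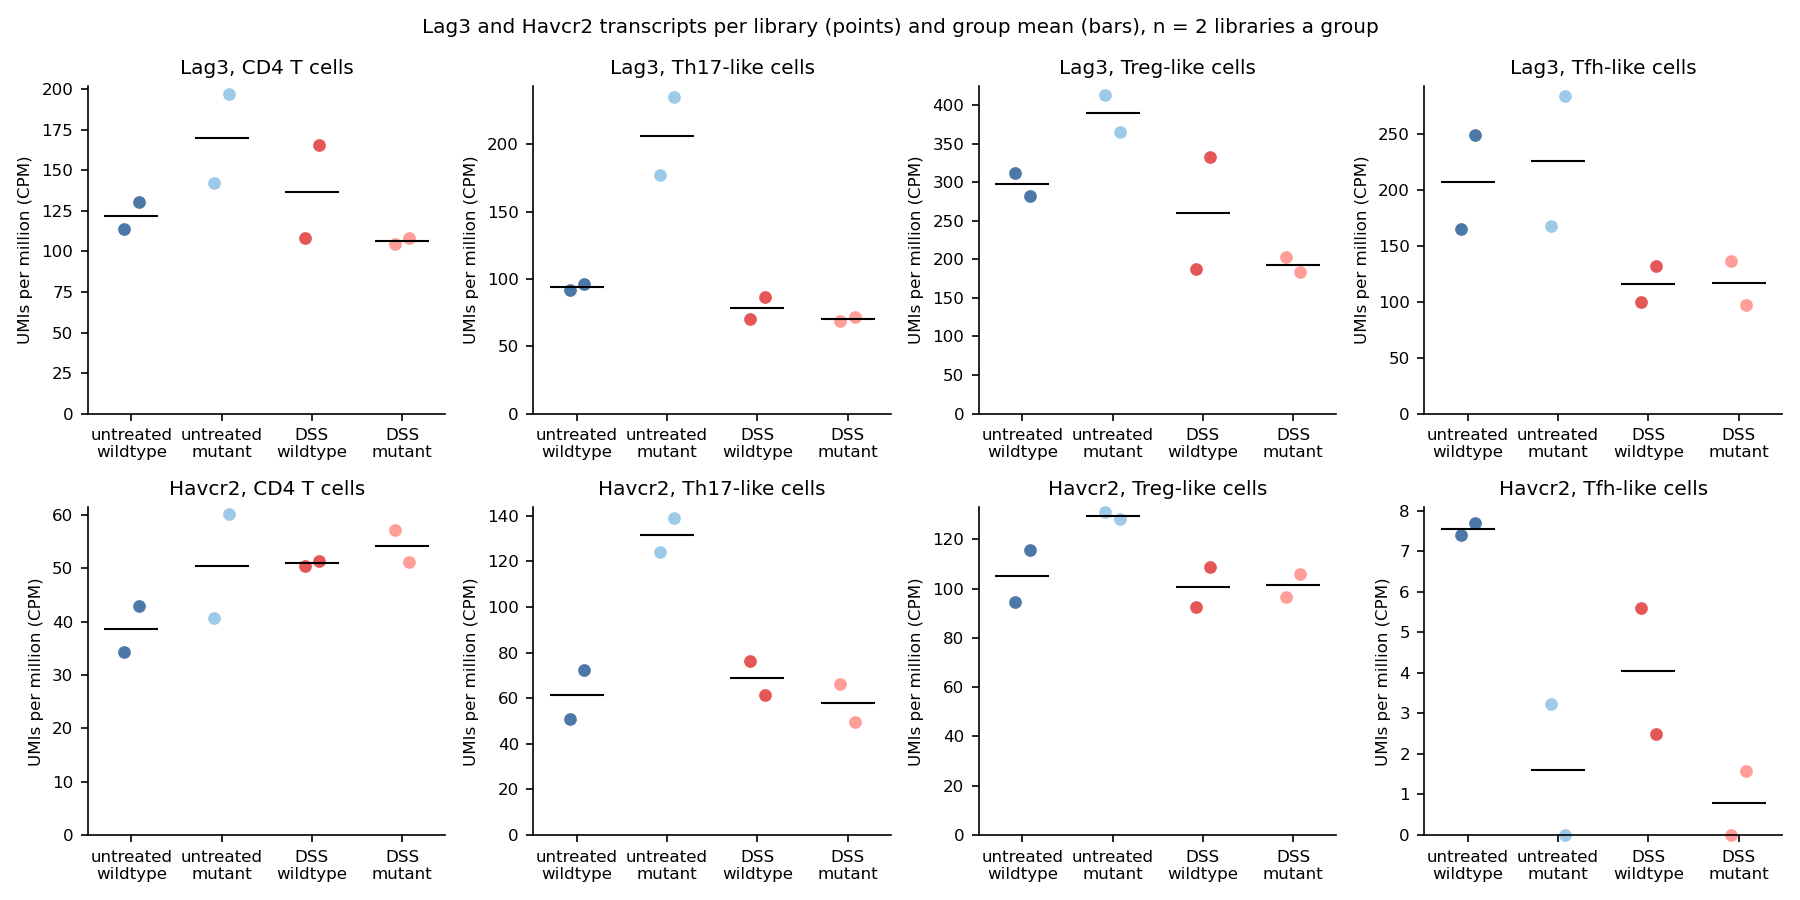
Lag3 (top) and Havcr2 (bottom) in CPM (y axis) by group (x axis) in CD4 T, Th17-like, Treg-like and Tfh-like cells, with points for libraries and bars for the mean of 2. In Th17-like cells the untreated mutant libraries, at 177 and 235 for Lag3 and 124 and 139 for Havcr2, are above all others.

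In Treg-like cells Lag3 stood at 312 and 283 CPM in untreated wildtype, 413 and 365 in untreated mutant, 188 and 332 in DSS-treated wildtype and 202.7 and 184 in DSS-treated mutant libraries. The mutant groups did not overlap, while the DSS-treated wildtype libraries spanned the untreated ones. Lag3 fell with DSS in mutant Treg-like cells by 1.04 ± 0.20 on the log2 scale, or 2.06-fold (adjusted p = 0.0137). In this comparison 2.07% of the 8302 genes were called, 0.795% higher and 1.28% lower. Without untreated mutant replicate 1 (log2 -0.95, adjusted p = 0.168) or replicate 2 (log2 -1.13, adjusted p = 0.117) the change was of similar size and was not called.

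Within the Treg-like cells the fall was called in cluster 2, where Lag3 went from 562 and 492 CPM in untreated to 271 and 225 in DSS-treated mutant libraries (log2 -1.11 ± 0.19, adjusted p = 0.00875, with 2.12% of all genes called). In cluster 7 the log2 change of Lag3 was -0.91 ± 0.26 (adjusted p = 0.105, with 1.0% of genes called). The difference between the clusters was not tested. In wildtype Treg-like cells the DSS change of Lag3 was -0.24 ± 0.20 (adjusted p = 0.600), and the interaction was -0.80 ± 0.28 (unadjusted p = 0.0110, adjusted p = 1.0).

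In Tfh-like cells the Lag3 level was 165 and 248.7 CPM in untreated wildtype, 168 and 283 in untreated mutant, 99.7 and 131 in DSS-treated wildtype and 136 and 97.1 in DSS-treated mutant libraries, so all 4 untreated libraries were above all 4 treated ones. Lag3 fell with DSS in mutant Tfh-like cells by 1.03 ± 0.24 on the log2 scale, or 2.04-fold (adjusted p = 0.0228, with 2.89% of genes called). In wildtype the log2 change was -0.89 ± 0.25 (adjusted p = 0.184), and the interaction was -0.14 ± 0.34. The mutant call was lost without untreated mutant replicate 2 (log2 -0.58, adjusted p = 0.364), without DSS-treated mutant replicate 2 (log2 -0.79, adjusted p = 0.365) and, at an unchanged log2 of -1.03, without either untreated wildtype library (adjusted p = 0.0527 and 0.0563).

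Over all CD4 T cells Lag3 stood at 114 and 130 CPM in untreated wildtype, 142 and 197 in untreated mutant, 108 and 166 in DSS-treated wildtype and 105 and 108 in DSS-treated mutant libraries. The DSS change in the mutant, -0.76 ± 0.20 on the log2 scale, just missed the threshold (adjusted p = 0.0562), and was called with DESeq2 (adjusted p = 0.00827). The log2 ratio of the group means was -0.67, and -0.74 with the same subset shares set for every library. After DSS the mutant and wildtype libraries overlapped (log2 difference -0.37 ± 0.20).

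Heat-shock and immediate stress genes were also high in the untreated mutant libraries. A list of 15 such genes summed to 22559 and 24828 CPM in Th17-like cells of the untreated mutant libraries, against 10708 to 15872 in the 6 others. In Treg-like cells the sums were 17680 and 19450 CPM against 9866 to 13061. The lowest of these sums was that of DSS-treated wildtype replicate 2, where Lag3 stood at 332 CPM. In Tfh-like cells they were 23722 and 22754 CPM against 9602 to 13421, and Lag3 there stood at 165 and 248.7 CPM in untreated wildtype and 168 and 283 in untreated mutant libraries. The part of the stress genes in the Lag3 results was not tested beyond the low-stress values given with them. In the mutant, 7 of the 15 were called lower with DSS in Th17-like cells, 6 in Treg-like cells and 8 in CD4 T cells, against 1.82%, 1.28% and 2.93% of all genes called lower. The chaperone genes Hspd1, Hspe1, Hsp90aa1, Hspa1a and Hsp90ab1 were among them in all 3 populations, Hsph1 and Hspa8 in CD4 T and Th17-like cells, and the stress factor Atf3 in CD4 T and Treg-like cells. In Th17-like cells Hspe1 fell by 1.76 ± 0.24 on the log2 scale. Between untreated genotypes Hspa1a was higher in the mutant in Th17-like (log2 2.65 ± 0.39) and Treg-like cells (log2 2.48), with Hspa1b also called in Treg-like cells (log2 2.65).

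Lag3 was therefore also measured in cells with at most 1% of their transcripts from the 15 genes, a limit chosen after seeing the data. The limit kept unequal shares of the Th17-like cells, 23.4% and 4.80% (37 and 25 cells) in the untreated mutant libraries against 23.4% to 53.6% (73 to 295 cells) in the others, so it selects cells by a quantity that differs between the groups. In the cells kept, Lag3 stood at 93.3 and 121 CPM in untreated wildtype, 127 and 141 in untreated mutant, 47.0 and 53.9 in DSS-treated wildtype and 35.0 and 42.9 in DSS-treated mutant libraries. The log2 change with DSS in the mutant was -1.81 ± 0.42 in these cells (adjusted p = 0.0478). The log2 difference between untreated mutant and wildtype was 0.30 ± 0.37 (adjusted p = 0.986), against 1.11 in all Th17-like cells. In wildtype the DSS change of Lag3 was -1.07 ± 0.34 there (adjusted p = 0.320). The mutant change and the genotype difference rest on the 37 and 25 untreated mutant cells kept, and so on few transcripts. In low-stress Treg-like cells the log2 change of Lag3 with DSS in the mutant was -1.04 ± 0.26 (adjusted p = 0.0809), and in low-stress Tfh-like cells it was -1.05 ± 0.36 (adjusted p = 0.344).

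**Figure D3:**
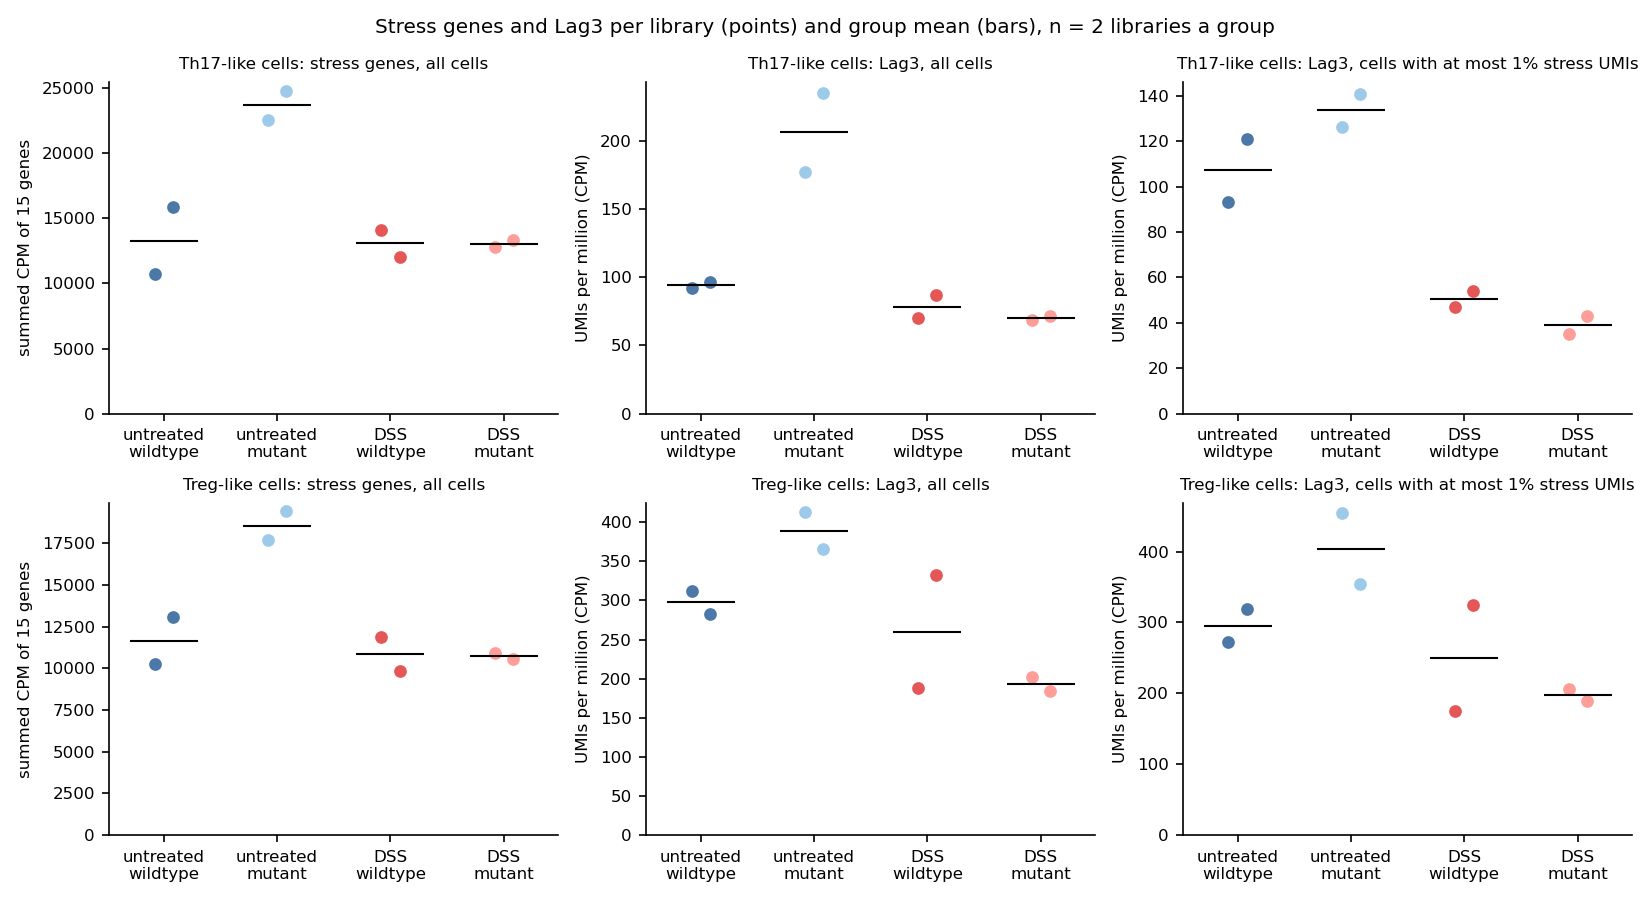
Summed level of 15 stress genes (left), Lag3 in all cells (middle) and Lag3 in cells with at most 1% of UMIs from those genes (right), in CPM, for Th17-like (top) and Treg-like cells (bottom). Points are libraries and bars means of 2; in low-stress Th17-like cells the untreated groups lie at 93.3 to 141 and the DSS groups at 35.0 to 53.9.

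Havcr2 followed a similar order in Th17-like cells. It stood at 50.8 and 72.4 CPM in untreated wildtype, 124 and 139 in untreated mutant, 76.5 and 61.5 in DSS-treated wildtype and 66.2 and 49.7 in DSS-treated mutant libraries. Havcr2 fell with DSS in mutant Th17-like cells by 1.19 ± 0.21 on the log2 scale, or 2.28-fold (adjusted p = 0.00375). The untreated mutant libraries were above the wildtype ones by 1.06 ± 0.23 on the log2 scale, which was not called (adjusted p = 0.105). It was called with neighbouring animal numbers as a block (log2 1.03, adjusted p = 0.0327), without a filter on low counts (log2 1.08, adjusted p = 0.00257) and without either DSS-treated mutant library (adjusted p = 0.027 and 0.0288). No label says that these numbers pair the animals. The interaction was -1.34 ± 0.32 (unadjusted p = 0.000455, adjusted p = 0.386).

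The DSS call for Havcr2 was lost, at a similar size, without untreated mutant replicate 2 (log2 -1.08, adjusted p = 0.115), and in low-stress cells (log2 -0.87 ± 0.49, adjusted p = 0.549). In low-stress cells Havcr2 stood at 45.5 and 79.0 CPM in untreated wildtype, 54.2 and 219.5 in untreated mutant, 63.5 and 78.4 in DSS-treated wildtype and 70.0 and 52.4 in DSS-treated mutant libraries. The one high value there came from the 25 cells of untreated mutant replicate 2, while replicate 1 lay between the DSS-treated mutant libraries. The call was also lost over all barcodes that met the cell limits (log2 -0.51, adjusted p = 0.189). Its stress-gene sums are those given for Lag3 in the same cells, and their part in the Havcr2 result was not tested beyond the low-stress value. In Treg-like cells Havcr2 stood at 94.6 and 116 CPM in untreated wildtype, 131 and 128 in untreated mutant, 92.5 and 109 in DSS-treated wildtype and 96.7 and 106 in DSS-treated mutant libraries, and its DSS change in the mutant was -0.37 ± 0.16 (adjusted p = 0.225). Over all CD4 T cells the Havcr2 log2 ratio of DSS-treated to untreated mutant was 0.10, and -0.36 with the same subset shares set for every library.

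Ctla4 moved the other way in Th1-like cells. In mutant Th17-like cells its group means were 1024 CPM untreated and 1109 after DSS. In mutant Treg-like cells they were 1226 and 1316, and neither change was called. In Th1-like cells it stood at 498 and 535 CPM in untreated wildtype, 389 and 500 in untreated mutant, 614 and 799 in DSS-treated wildtype and 695 and 823 in DSS-treated mutant libraries. All 4 treated libraries were above all 4 untreated ones. Ctla4 rose with DSS in mutant Th1-like cells by 0.72 ± 0.17 on the log2 scale, or 1.65-fold (adjusted p = 0.0260, with 3.54% of genes called), and the wildtype change was 0.41 ± 0.17 (adjusted p = 0.292). The stress genes summed to 19530 and 24312 CPM in the untreated mutant Th1-like cells against 10967 to 16733 in the other libraries, and their part in the Ctla4 result was not tested. The call was lost without untreated mutant replicate 1 (log2 0.51, adjusted p = 0.304) or DSS-treated mutant replicate 2 (log2 0.58, adjusted p = 0.354).

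Over all CD4 T cells Ctla4 stood at 625 and 657 CPM in untreated wildtype and 826 and 923 in DSS-treated wildtype libraries, and at 582 and 759 in untreated and 991 and 913 in DSS-treated mutant libraries. The treated and untreated libraries did not overlap in either genotype, but neither change was called (log2 0.38 ± 0.14, adjusted p = 0.200, and 0.42 ± 0.14, adjusted p = 0.100). In the same libraries the share of Treg-like cells, where Ctla4 is highest, was 11.2% to 15.8% untreated and 22.8% to 28.4% after DSS. With the same subset shares set for every library the log2 ratios of Ctla4 were 0.37 in wildtype and 0.36 in the mutant, against 0.45 and 0.51 without.

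Pdcd1 in CD4 T cells stood at 23.4 and 22.8 CPM in untreated wildtype and at 33.5 and 33.3 in DSS-treated wildtype libraries, a log2 difference of 0.47 ± 0.15 (unadjusted p = 0.0117, adjusted p = 0.158). The mutant libraries had 33.7 and 24.1 CPM untreated and 33.4 and 33.9 after DSS, and overlapped. No Pdcd1 difference was called in any subset. In Treg-like cells Tigit stood at 51.3 and 34.9 CPM in untreated wildtype, above the 23.0 to 34.1 of the 6 other libraries, and its DSS change in wildtype was -0.70 ± 0.24 (unadjusted p = 0.00987, adjusted p = 0.193). Btla stayed within 17.4 to 24.4 CPM over the 8 CD4 T libraries, and none of its comparisons there was called.

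Cd200 was higher in the mutant libraries of CD4 T cells without passing the test. Its levels were 10.3 and 15.2 CPM in untreated wildtype and 21.4 and 25.3 in untreated mutant libraries, and 13.3 and 14.1 in DSS-treated wildtype and 16.98 and 22.7 in DSS-treated mutant libraries. The genotypes did not overlap in either condition. The log2 differences were 0.87 ± 0.22 untreated (unadjusted p = 0.00254, adjusted p = 0.590) and 0.54 ± 0.21 after DSS (unadjusted p = 0.0268, adjusted p = 1.0). The log2 ratios of the group means were 0.87 and 0.53, and 0.54 and 0.70 with the same subset shares set for every library. Which condition had the larger difference therefore depended on the shares. In Tfh-like cells, where Cd200 is highest, they were 0.62 ± 0.29 and 1.02 ± 0.27 (adjusted p = 0.807 and 1.0).

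Counted over the 7 genes, most calls came from DSS in the mutant. The 7 were chosen with earlier results of these data known, so their counts beside the shares of all genes are descriptions. In CD4 T cells none of the 7 was called with DSS in wildtype (0.271% of all 11062 genes tested), in the mutant against wildtype untreated (0%), after DSS (0%), with DSS in the mutant (5.45%, with 2.52% higher and 2.93% lower) or in the interaction (0%). Unadjusted p-values under 0.05 were found for 2, 2, 1, 2 and 1 of the 7, in that order, against 18.6%, 5.27%, 1.73%, 26.6% and 3.91% of all genes. DESeq2 called 0, 0, 0, 1 and 0.

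In Th17-like cells 1 gene was called in the untreated genotype comparison (Lag3, against 0.0712% of all genes). DESeq2 called 0 in that comparison. With DSS in the mutant 2 were called (Lag3 and Havcr2, against 3.40% of all genes). None was called with DSS in wildtype (0.228% of genes), after DSS between genotypes (0%) or in the interaction (0%), where 0, 0 and 2 had an unadjusted p under 0.05, against 10.6%, 2.21% and 4.4% of all genes, and DESeq2 called 0 each. In Treg-like cells Lag3 was called with DSS in the mutant, against 2.07% of all genes. None was called there with DSS in wildtype (0.349%), between untreated genotypes (0.0241%), after DSS (0%) or in the interaction (0%), with 1 unadjusted p under 0.05 in each of the 4, against 14.5%, 4.29%, 2.01% and 3.63% of all genes, and no DESeq2 call. In the 6 other subsets together 2 of 175 tests of these genes were called, the DSS changes of Ctla4 in Th1-like and Lag3 in Tfh-like cells of the mutant, against 0.733% of all 198395 gene tests. An unadjusted p under 0.05 was found in 25 of the 175 (14.3%), against 9.03% of all gene tests.

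The median log2 change of the 7 genes between untreated genotypes was 0.32 in CD4 T, 0.59 in Th17-like and 0.27 in Treg-like cells, where the median over all genes was within 0.01 of 0. With DSS in the mutant it was -0.10, -0.08 and -0.08, and none of the 5 genes other than Lag3 and Havcr2 was called there. A low count kept some genes out of the tests: 6 of 7 were tested in Tfh-like cells, 5 in cluster 5 and 3 in naive or central memory-like cells.

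**Figure D4:**
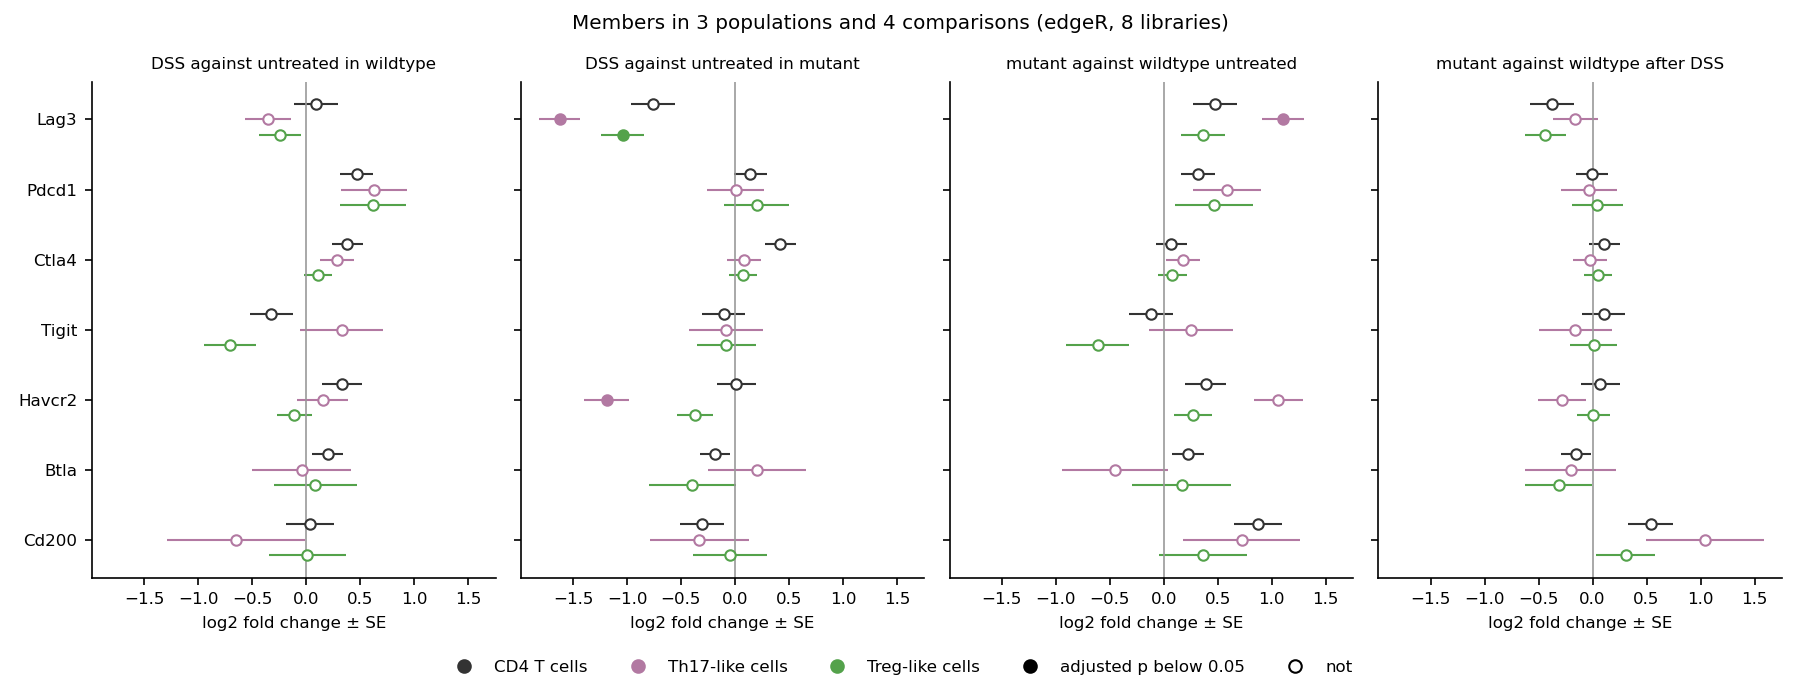
Log2 fold change with SE (x axis) of the 7 genes (y axis) in 4 comparisons and 3 populations, from edgeR over 8 libraries; filled points have an adjusted p below 0.05. The filled points are Lag3 in Th17-like cells with DSS in the mutant and between untreated genotypes, Havcr2 in Th17-like cells and Lag3 in Treg-like cells with DSS in the mutant.

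Genes around the receptors were read from fixed lists. Over all genes, DSS in the mutant gave calls for 5.45% in CD4 T, 3.40% in Th17-like and 2.07% in Treg-like cells. A single call in a list of 16 lies near that background. Calls with DSS in the mutant, here and in the lists below, use the untreated mutant libraries with their high stress-gene sums. In CD4 T cells these sums were 24169 and 24594 CPM, against 10735 to 15235 in the other libraries. The part of the stress genes in these calls was not tested. Of 20 ligand genes, 16 were tested in CD4 T cells, 11 in Th17-like and 14 in Treg-like cells. With DSS in the mutant 1 was called lower in CD4 T cells, Lgals3, which encodes a galectin (log2 -0.96 ± 0.22, adjusted p = 0.0416). In Treg-like cells 1 was called lower, the Pdcd1 ligand gene Pdcd1lg2 (log2 -0.90 ± 0.21, adjusted p = 0.0395). In Th17-like cells 0 were called, and Lgals3 had a log2 change of -0.99 ± 0.28 (adjusted p = 0.0567). The medians over the list were -0.24, -0.09 and -0.42, against 0.01, 0.01 and 0.00 over all genes.

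Of 9 activating receptors that share ligands or signals with these genes, all were tested in CD4 T cells. With DSS in the mutant Tnfrsf9 (4-1BB) rose (log2 1.36 ± 0.14, adjusted p = 0.00617), and Tnfrsf4 (OX40) fell (log2 -0.69 ± 0.16, adjusted p = 0.0418). Cd226, which competes with Tigit for Pvr, fell (log2 -1.09 ± 0.27, adjusted p = 0.0478). In Th17-like cells Tnfrsf9 rose (0.96 ± 0.22) and Tnfrsf4 fell (-1.10 ± 0.21) among 8 tested, and in Treg-like cells Tnfrsf4 fell (-0.87 ± 0.16) among 8. Tnfrsf9 also rose with DSS in wildtype CD4 T cells (1.19 ± 0.14, adjusted p = 0.0074). It is among the genes that lead both Treg-like clusters, whose share of CD4 T cells was 11.2% to 15.8% untreated and 22.8% to 28.4% after DSS, and its log2 change within Treg-like cells was 0.65 ± 0.14 in wildtype and 0.42 ± 0.14 in the mutant, neither called. The part of the share in the Tnfrsf9 rise was not tested.

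Of 14 other inhibitory receptors, 12, 6 and 9 were tested in CD4 T, Th17-like and Treg-like cells. Only Klrc1, an NKG2 family receptor gene, was called, higher with DSS in mutant CD4 T cells (log2 1.36 ± 0.29) and Treg-like cells (3.35 ± 0.59, where the untreated mutant libraries held few transcripts of it). Among 14 signalling and shedding partners, Ptpn6, the phosphatase SHP-1 (-0.998 ± 0.17), and Sh2d1a (-0.57 ± 0.13) fell with DSS in mutant CD4 T cells, and Trat1 rose in Th17-like cells (1.57 ± 0.34).

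Of 17 transcription factors tied to checkpoint genes, Foxp3, the Treg factor, rose with DSS in CD4 T cells of both genotypes (log2 1.20 ± 0.18 in wildtype and 1.58 ± 0.18 in the mutant), where the Treg-like share was 11.2% to 15.8% untreated and 22.8% to 28.4% after DSS. Within Treg-like cells the log2 changes of Foxp3 were 0.36 ± 0.14 and 0.40 ± 0.14 and were not called (adjusted p = 0.240 and 0.137). The part of the share in the Foxp3 rise was not tested. Nr4a2 (-0.95 ± 0.21) and Tcf7 (-0.53 ± 0.11) fell in mutant CD4 T cells, where the part of the subset shares was not tested. In Th17-like cells Nr4a3 rose in both genotypes (0.98 ± 0.18 and 0.81 ± 0.17) and Tox2 fell in the mutant (-0.92 ± 0.23). Among 8 genes of type 1 regulatory cells, a set that includes Lag3, Il10 fell in mutant Treg-like cells (-0.65 ± 0.14, adjusted p = 0.0254), alongside Lag3. Apart from the stress genes, no gene of these lists was called between genotypes in the 3 populations, other than Lag3 itself.

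Shares of cells with a transcript were set at 1000 UMIs a cell, leaving 20134 of the 20731 CD4 T cells. Ctla4 was found in 46.2% of CD4 T cells (69.2% without thinning), Lag3 in 9.99% (20.7%), Havcr2 in 4.31% (10.6%) and Pdcd1 in 2.82% (6.91%). Tigit was found in 2.24%, Btla in 1.98% and Cd200 in 1.42%. Fibroblast barcodes, which should lack most of these genes, gave 1.0% for Lag3 (5.44% without thinning) and 0.894% for Ctla4 (4.87%), with median depths of 3520 to 6427.5 UMIs a cell against 1942.5 to 2889 in CD4 T cells. They gave 0.0631% for Havcr2 and 0.0759% for Pdcd1. These barcodes are outside the deposited cell list. Fibroblast-like cells inside the list, like the CD4 T cells, had higher thinned shares. Their group means were 17.8% to 24.3% for Ctla4, 3.03% to 6.75% for Lag3, 0.758% to 3.04% for Havcr2 and 0.541% to 2.50% for Pdcd1. Plasma cell barcodes gave 8.43% for Ctla4 (42.7% without thinning) and 0.0694% for Lag3. In mutant Th17-like cells the thinned share with Lag3 was 10.1% and 20.2% untreated and 4.79% and 5.14% after DSS.

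Transcripts of the receptors were also counted in other cells of the libraries. ILC3-like cells (431) had more Pdcd1 than any of the 8 T subsets, 144 ± 59.8 CPM. Their untreated libraries stood at 84.3 to 111 CPM and their DSS-treated libraries at 130 to 257, without overlap, and no test was run in these cells. Macrophage-like cells (2794) had 86.8 ± 15.5 CPM of Havcr2, 53.8 of Lag3 and 111 ± 53.3 of Ctla4. In the same deposited cell list fibroblast-like cells had 26.2 CPM of Havcr2, 49.2 of Lag3 and 261 of Ctla4, against 0.646, 10.8 and 9.26 in fibroblast barcodes outside it. The part of T cell RNA or of doublets in these levels was not tested. Cd200 was also found in endothelium-like cells (53 cells, 157 ± 85.6 CPM, from 56 transcripts) and in unnamed cluster 16 (202 cells, 191 ± 71.7 CPM), led by Plvap, Acta2, Fabp4 and Myh11. Summed macrophage markers in the Th17-like cells ran from 76.7 to 331 CPM, B cell markers from 0 to 14.5 and fibroblast markers from 9.92 to 38.1.

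**Figure D5:**
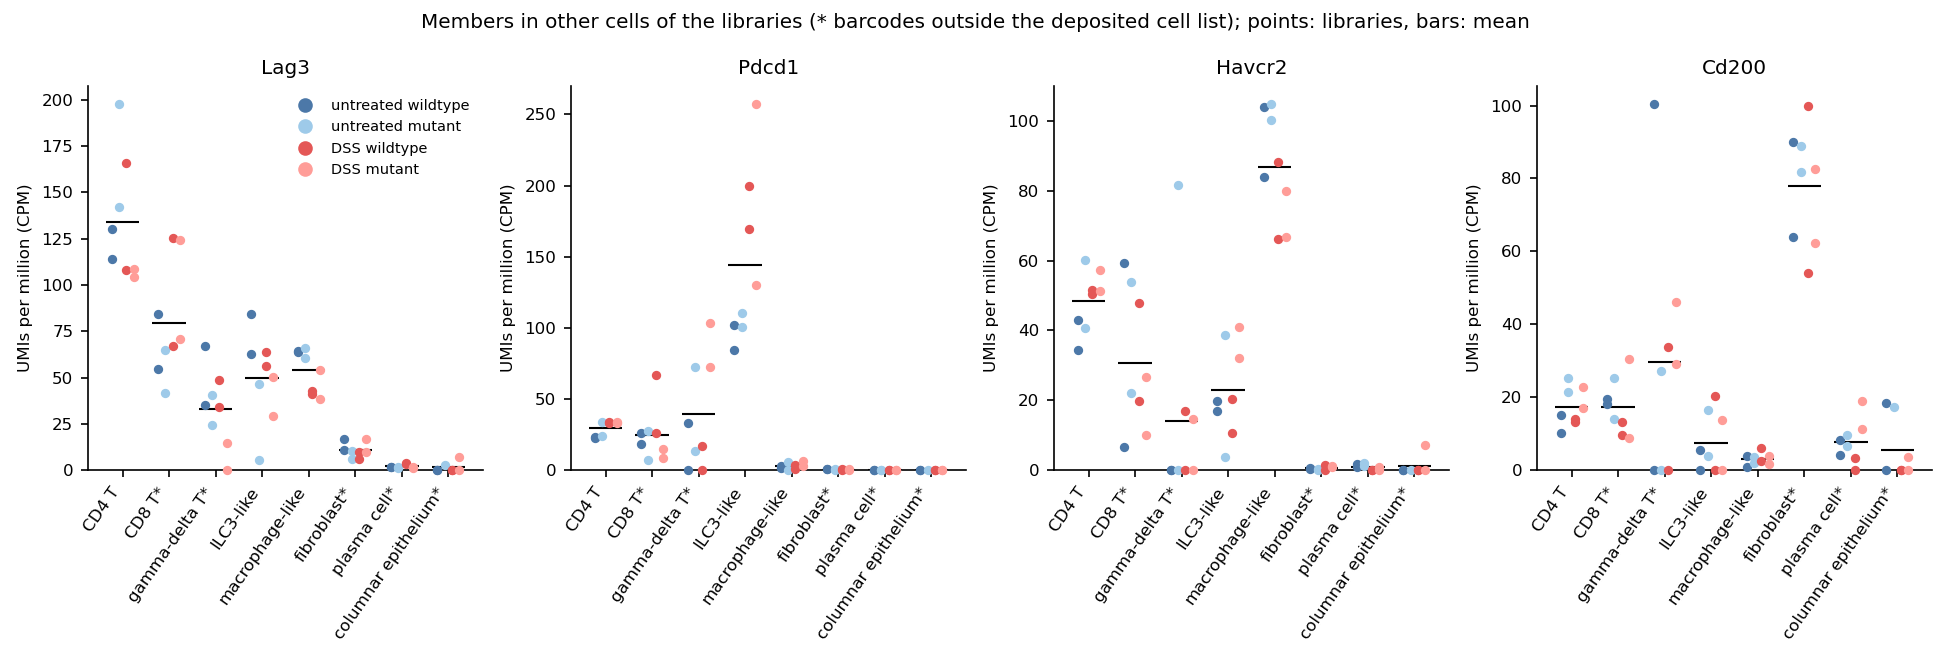
Lag3, Pdcd1, Havcr2 and Cd200 (y axis, CPM) in CD4 T, CD8 T, gamma-delta T, ILC3-like and macrophage-like cells, fibroblasts, plasma cells and columnar epithelium (x axis), where a star marks barcodes outside the deposited cell list. Points are libraries and bars means; of these classes Pdcd1 is highest in ILC3-like cells (144), Havcr2 in macrophage-like cells (86.8) and Cd200 in fibroblast barcodes (77.9).

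Some receptors were found in the same cells more often than their separate shares would give. Counts over all CD4 T cells pool clusters with unlike levels. At 1000 UMIs, 54.99 ± 5.47% (SD, n = 8) of CD4 T cells had at least 1 of the 7 genes, 12.5 ± 1.78% at least 2 and 1.51 ± 0.381% at least 3. Lag3 and Havcr2 were found together in 197 cells, where their shares in each library multiply to 85.7, and the count was above that product in 8 of 8 libraries. Within Treg-like cells they were together in 123 cells against 79.9, but clusters 2 and 7 differ the same way in both genes. Within cluster 2 alone the count was 1.30 times the product, above it in 7 of 8 libraries, and within cluster 7 it was 9 against 4.73. Lag3 and Ctla4 were together in 1253 CD4 T cells against 925, and within cluster 2 in 545 against 507.6.

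Lag3 and Pdcd1 were together in 47 CD4 T cells against 55.6. In Treg-like cells, whose clusters differ in opposite ways in these genes, they were together in 18 against 25.9, while within cluster 2 the count was 15 against 14.1 and within cluster 7 it was 7 against 7.73. In Th1-like cells it was 13 against 7.23, above the product in 4 of 8 libraries, in cluster 5 it was 4 against 0.936, and in Tfh-like cells 5 against 13.3, above in 0 of 8. Lag3 and Btla were together in 0 Treg-like cells against 7.23, and in a separate thinning of cluster 2 in 1 against 4.22. Each population was thinned by its own random draw, so counts of clusters do not add up to those of the whole.

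Genes with the most similar pattern to a receptor were listed over 64 sums, 8 subsets in 8 libraries, among 6921 genes. The sums share libraries and depth, so the correlations are descriptions. For Lag3 they were Ptms and Rel (Pearson r of 0.80 each) and Sdf4, Stx11 and Cyfip1 (0.78 each). Lag3 lies on GRCm38 at chr6:124904361-124911705 on the minus strand, and Ptms, its nearest protein-coding neighbour, lies 1975 bases away on the same strand. For Ctla4 they were Areg (0.96), Sla (0.90), Mxi1 (0.89), Fam129a (0.88) and Hopx (0.87). For Pdcd1 they were Tank (0.74), Derl1 (0.73), Zmiz1 (0.73), Ghitm (0.72) and Ier5l (0.72). For Tigit they were Mea1 (0.79), Tmem2 (0.79), Maf (0.77), Chpf (0.74) and Ptp4a2 (0.73).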

How the data were processed

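Single-cell 3' transcript libraries of CD4-enriched colonic lamina propria cells (8 libraries, 2 in each of 4 groups) were measured on the 10x Chromium platform. The authors deposited raw UMI counts per gene and barcode, per the file headers and values; Cell Ranger 3.1.0, Seurat 4.0.1 and the build mm10 are named in the submitters' processing notes. Groups came from sample titles and treatment labels. Gene names were joined to rows by order; of 30934 row identifiers found in the reference, 30468 (98.5%) carried the listed symbol.

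The deposited cell list (27420 cells) held cells with at least 400 genes, under 20% mitochondrial counts and at least 1 Cd4 count, and 5656 barcodes that met these limits were not listed. Cells were normalised to 10000 and clustered on 1807 of 2000 variable genes, with 30 components, 15 neighbours and Leiden resolution 1 (scanpy 1.11.5, leidenalg 0.10.2, Python 3.11.15). Left out were the 7 genes, effector genes such as Il17a, Il17f, Il22, Il10, Ifng and granzymes, and sex-linked genes. Immunoglobulin, T cell receptor segment, haemoglobin and mitochondrial genes were also left out. Clusters were named from marker lists by thresholds set after seeing them. Doublets were not removed.

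UMI counts were summed per library and population and tested with edgeR 4.0.16 (R 4.3.3; quasi-likelihood, TMM, filterByExpr, all 8 libraries, Benjamini-Hochberg over all genes, threshold 0.05). On simulated counts for the DSS comparison in wildtype CD4 T cells (10935 genes), 86% of 2-fold and 100% of 4-fold changes were recovered, with 12 false calls. Recovery was not measured for the other comparisons or within the smaller subsets. Shares of cells were taken after thinning to 1000 UMIs. The 7 genes were named in every comparison; of each list every called gene was named (the rule also allowed the 2 of smallest p where none was called, of which only Lgals3 in Th17-like cells is given); likeness named the 5 genes of highest r. The members and lists were chosen with earlier results of these data known. The comparison of DSS in the mutant and the interaction complete the design and are not among the comparisons the series names. The titles' animal numbers are near each other for pairs of wildtype and mutant libraries, but no label states a pairing. Promoter windows came from RefSeq (GRCm38.p6), gene positions from GENCODE on GRCm38. Alternatives included DESeq2 1.42.0, other filters, coarser clusters, UMI gates and each library left out.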

Additional observations from a re-analysis of the deposited data

Results flagged for a closer look

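Signals above the CD4 T cell mean were seen in barcodes that are not in the deposited cell list and enter no comparison between genotypes or treatments. Cd200 stood at 77.9 CPM (mean of 8 libraries) in 6102 fibroblast barcodes, against 17.4 in CD4 T cells. In 92 gamma-delta T cell barcodes Pdcd1 stood at 39.1 CPM, from 20 transcripts in all, against 29.8 in CD4 T cells. Of these transcripts 14 came from the DSS-treated mutant group (88.1 CPM). The untreated mutant group stood at 43.1 CPM, and the wildtype groups at 16.7 untreated and 8.48 after DSS. Cd200 stood at 29.6 CPM in the same 92 barcodes, from 13 transcripts. The latter pair rests on few transcripts, and several of their libraries are at 0.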

How the results depend on the processing

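The number of the 7 genes called was recomputed for 15 comparisons under 256 alternatives, of which 230 gave a count within 1.5 times the reported one and 26 did not. Most of the 15 reported counts were 0, so the 230 largely describe counts that stayed at 0. Moves fell repeatedly on the untreated genotype comparison in Th17-like cells, as given below. Without a filter on low counts, 1 gene was called between untreated genotypes in CD4 T cells, 2 with DSS in mutant CD4 T cells, 1 in their interaction, 2 between untreated genotypes in Th17-like cells and 2 in their interaction. DESeq2 called 1 with DSS in mutant CD4 T cells and 0 between untreated genotypes in Th17-like cells. That Th17-like count of 1 became 2 with the replicate block of neighbouring animal numbers, and 0 with coarser clusters, with UMI gates, without cells that carry other markers, in low-stress cells and over all barcodes within the limits. With DSS in the mutant, Th17-like calls went from 2 to 1 in low-stress cells and over all barcodes, and Treg-like calls to 0 in low-stress cells. The share of all genes called under these alternatives is not given here. Leaving out 1 library at a time gave 0 to 1 calls with DSS in mutant CD4 T cells, 0 to 2 between untreated genotypes and 1 to 2 with DSS in the mutant in Th17-like cells, 0 to 1 with DSS in mutant Treg-like cells, and 0 in all other comparisons. Of 376 alternatives of 23 log2 changes, 1 turned sign: Lag3 in Treg-like cells after DSS went from -0.44 to 0.0078 without DSS-treated wildtype replicate 2, and to -0.78 without replicate 1. Of the 85 other log2 changes, with an unadjusted p of at least 0.05 and no call under any alternative, 58 took the other sign under at least 1 alternative. Thinning to 500 UMIs gave shares in CD4 T cells of 5.66% for Lag3, 1.58% for Pdcd1, 29.5% for Ctla4, 1.21% for Tigit, 2.11% for Havcr2, 1.04% for Btla and 0.781% for Cd200. UMI gates gave 1092 CPM of Ctla4 and 89.2 of Havcr2 in Treg-like and 16.1 of Btla in Th17-like cells. Deviations of libraries with neighbouring numbers correlated at 0.12 untreated and 0.16 after DSS over 9363 genes, from 2 pairs each. The cause of these shifts was not tested. Leaving out doublets was not run, since the caller marked 2 of 27420 cells. Low counts limit Tigit, Btla and Cd200 within subsets.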
